A study of Mus musculus with 6 samples.

Results

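Surface ectoderm and epithelial genes were followed through H3K27ac, H3K27me3 and CTCF ChIP-seq of the distal (DFL) and proximal (PFL) forelimb of wild type B6CBAF1 mouse embryos. The stage was E12.5, which the sample titles shorten to E12. The set was a fixed list of 33 genes out of 21701 protein-coding genes with a unique symbol, and all 33 were found in the annotation. DFL is the presumptive digit region and PFL the presumptive arm. The 6 libraries had been published earlier and were reprocessed for the study, which describes its ChIP experiments as unreplicated and made on pooled tissue. With a single library for each mark in each piece no test was possible, and every difference below compares libraries. Another 2 peak lists, without a sample in the series, came from HOXA13 and HOXD13 ChIP-seq in whole forelimb, labelled E11, and served to place binding of these distal limb factors, collectively called HOX13.

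The limb bud is a core of mesenchyme wrapped in a thin surface ectoderm, whose distal rim thickens into the apical ectodermal ridge, a source of growth signals. Ectodermal cells build keratin filaments, cadherin junctions, desmosomes and a basement membrane, and transcription factors such as p63 and the grainyhead-like proteins switch these genes on. H3K27ac marks active promoters and enhancers, H3K27me3 is deposited by Polycomb at silent genes, and CTCF is found at many borders of chromatin domains. Both pieces were unsorted tissue, in which mesenchyme outnumbers ectoderm. In such tissue fewer cells carrying a mark and less of the mark per cell cannot be told apart.

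A region is an interval that the peak caller found enriched over the local background of its own library, and a gene carried a mark at its promoter when a region lay within 2 kb of any of its start sites. The 8 lists held 59804 (DFL) and 69503 (PFL) regions of H3K27ac, 9083 and 13873 of H3K27me3, 54673 and 52801 of CTCF, 66761 of HOXA13 and 52660 of HOXD13. The lowest local background of a library, a measure of depth, was similar in both pieces for H3K27ac but was 3.06 fragments in DFL and 4.75 in PFL for H3K27me3, so that the DFL H3K27me3 library was the shallowest. Marker genes were read beside the labels. All 8 of the limb mesenchyme genes listed had promoter H3K27ac in both pieces, which does not tell the pieces apart. Both distal limb genes, Hoxa13 and Hoxd13, were acetylated in either piece, with H3K27ac covering a median of 5586 bp more in DFL over the 50 kb to either side. The median DFL minus PFL length was −777 bp at the 3 proximal limb genes, −836 bp at the mesenchyme genes and −243 bp over all genes. Of the distal, proximal and mesenchyme genes, only the distal ones thus had more in DFL. Lists of other cell types also differed, with −2363 bp at muscle genes, −1232 bp at endothelial genes and 477 bp at apical ectodermal ridge genes.

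The members were marked by H3K27ac at 23 promoters in DFL, against 59.2% of all genes, and at 17 promoters in PFL, against 61.6% of all genes. At 14 members the mark was present in both pieces, a share of 42.4% (95% Wilson interval, 27.2 to 59.2%) beside 58% of all genes. In DFL alone it was present at 9 members, or 27.3% (15.1 to 44.2%), whereas 1.16% of all genes had this state. In PFL alone it was present at 3 members, or 9.09% (3.14 to 23.6%), against 3.59% of all genes. The intervals cover counting error only. The members were thus more often acetylated in DFL alone than in PFL alone, and all genes the reverse. The matrix of promoter regions shows which gene carried what.

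**Figure D1:**
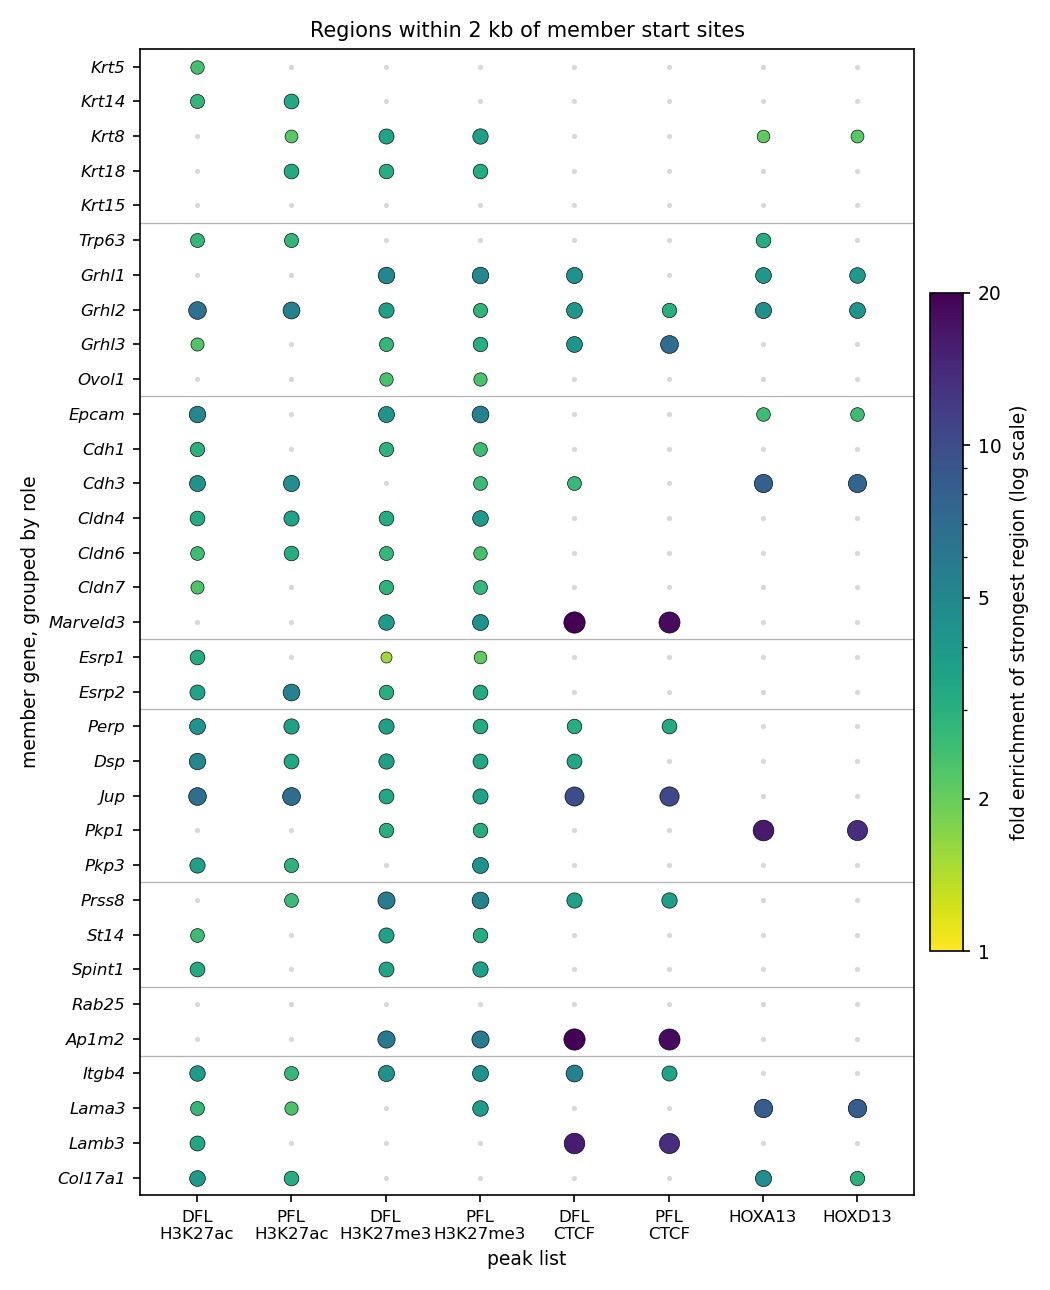
Regions within 2 kb of the start sites of the 33 members (rows, grouped by role) in the 8 peak lists (columns). Colour and dot size give the fold enrichment of the strongest region on a log scale and a small grey dot means that no region was listed; H3K27me3 dots fill most rows in both pieces, while several H3K27ac dots appear in DFL alone.

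The 9 members acetylated in DFL alone were Krt5, Epcam, Cdh1, Grhl3, Esrp1, Cldn7, St14, Spint1 and Lamb3. Epcam, an adhesion molecule found on nearly all epithelia, had the strongest regions of this group. Its region at chr17:87635973-87636543 had a fold enrichment of 4.97 and a −log10 q of 23.9 in DFL, and a second region 3′ of it, chr17:87636782-87637201, had a fold of 3.85. In PFL no H3K27ac region lay nearer than 6756 bp to the stronger of them. Both summits fell in an intron of Epcam.

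Esrp1, which directs epithelial splicing, had DFL regions at chr4:11387018-11388213 (fold 3.2, −log10 q 9.56, outside genes) and chr4:11386037-11386409 (fold 2.69, in an intron). The nearest PFL region was 63156 bp from the weaker of them, so that Esrp1 had no PFL H3K27ac within 50 kb at all. Its paralog Esrp2 differed in this respect, with regions in both pieces and a fold of up to 3.49 in DFL and of 5.27 in PFL.

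Among junction genes, Cdh1 (E-cadherin) had a DFL region over its coding exon at chr8:106603396-106603704 with a fold of 2.96. Cldn7, a tight junction claudin, had a weaker region in an intron, chr11:69966385-69966777, with a fold of 2.3 and a −log10 q of 3.14. Neither gene had a PFL region at its promoter, the nearest lying 15714 bp and 12953 bp away. The surface protease matriptase, encoded by St14, and its inhibitor HAI-1, encoded by Spint1, shared the same state. The DFL region of St14 (chr9:31131531-31131732, in a UTR exon) had a fold of 2.59 and that of Spint1 (chr2:119237455-119238125, over a coding exon) had a fold of 3.26.

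The remaining members of the group were a transcription factor and structural genes. Grhl3, a grainyhead-like factor needed for the epidermal barrier, had an intronic DFL region (chr4:135572928-135573354) with a fold of 2.28 and the nearest PFL region 2018 bp away. Krt5, the type II keratin of basal epidermis, had 3 DFL regions in the first 2 kb of the gene, with folds of 2.43, 1.99 and 1.78 and −log10 q values of 5.56, 2.32 and 1.32. Lamb3, a chain of the basement membrane protein laminin-332, had its DFL region at an internal start site, chr1:193302026-193302394, with a fold of 3.39. The median fold of the strongest promoter region was 2.96 (2.28 to 4.97) in these 9 members, 2.54 in the 252 genes acetylated in DFL alone. In DFL it was 3.75 in the 14 members acetylated in both pieces and 6.59 in all 12591 such genes.

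The 3 members acetylated in PFL alone were the simple epithelial keratins Krt8 and Krt18, which pair into filaments and are neighbours on chromosome 15, and Prss8, the protease prostasin. Krt18 had a region over its coding exon at chr15:102028203-102028503 with a fold of 3.26 in PFL. Krt8 had an intronic region (chr15:102002885-102003284, fold 2.17, −log10 q 2.45) and Prss8 a region in a UTR exon (chr7:127929491-127930039, fold 2.61). For these genes the nearest DFL regions lay 23234 bp, 18439 bp and 3752 bp away. Matriptase and prostasin, proteases of the same epidermal cascade, were thus listed in opposite pieces. Each rested on a single weak region, with a −log10 q of 4.79 at St14 and 6.52 at Prss8. With a −log10 q of at least 5 St14 was no longer listed in DFL.

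Promoter sequences of 4 members are shown to place the states beside the letters: Epcam and Grhl3 with H3K27ac in DFL alone, Krt18 with H3K27ac in PFL alone and Ap1m2 with none. They are RefSeq promoters of GRCm38.p6, running from 250 bases before to 50 bases after a start site. Capitals mark CAGGTG or its reverse complement, the E-box bound by ZEB and SNAI repressors, and in Krt18 also GCCNNNGGC, a TFAP2 motif.
Epcam promoter, chr17:87635729-87636028, plus strand: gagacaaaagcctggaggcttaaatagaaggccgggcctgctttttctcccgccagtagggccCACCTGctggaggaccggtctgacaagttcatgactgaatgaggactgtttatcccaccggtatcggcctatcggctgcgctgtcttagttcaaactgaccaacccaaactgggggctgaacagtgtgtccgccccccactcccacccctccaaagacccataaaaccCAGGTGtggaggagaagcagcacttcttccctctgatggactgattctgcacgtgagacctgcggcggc
Grhl3 promoter, chr4:135573583-135573882, minus strand: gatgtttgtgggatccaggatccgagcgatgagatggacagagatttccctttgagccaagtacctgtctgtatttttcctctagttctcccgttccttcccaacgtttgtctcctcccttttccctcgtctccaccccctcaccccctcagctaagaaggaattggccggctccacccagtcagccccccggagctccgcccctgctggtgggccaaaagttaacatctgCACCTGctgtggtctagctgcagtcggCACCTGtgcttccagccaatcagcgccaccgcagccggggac
Krt18 promoter, chr15:102027966-102028265, plus strand: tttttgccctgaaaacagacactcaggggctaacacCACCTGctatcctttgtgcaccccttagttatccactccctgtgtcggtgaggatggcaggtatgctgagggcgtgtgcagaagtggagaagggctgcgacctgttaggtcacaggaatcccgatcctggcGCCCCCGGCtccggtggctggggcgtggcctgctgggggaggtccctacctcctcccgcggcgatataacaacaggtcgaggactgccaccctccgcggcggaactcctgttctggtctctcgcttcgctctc
Ap1m2 promoter, chr9:21312284-21312583, minus strand: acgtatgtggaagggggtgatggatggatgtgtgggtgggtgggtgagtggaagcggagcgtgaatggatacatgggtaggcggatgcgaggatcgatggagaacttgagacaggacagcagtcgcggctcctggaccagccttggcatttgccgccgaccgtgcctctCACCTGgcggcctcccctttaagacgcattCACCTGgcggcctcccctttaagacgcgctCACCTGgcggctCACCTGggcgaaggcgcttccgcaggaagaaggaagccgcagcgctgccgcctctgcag
The RefSeq table held 20 promoters of 17 members. The E-box was found in 12 of the 20, or 60%, and in 20.2% of the 32841 promoters in the table. It occurred 4 times in Ap1m2, a clathrin adaptor subunit of polarised epithelia, and 2 times each in Epcam and Grhl3, so that genes with and without promoter H3K27ac carried it. The TFAP2 letters were in 20% of member promoters and 16.6% of all, the grainyhead letters AACCNGTT in 1 member promoter, that of Rab25, and 2.09% of all, and the HOX13 letters CAATAAA in 0 member promoters and 4.6% of all. Both strands were searched, and in no member promoter did matches of different motifs overlap. The median GC content was 58.8% in member promoters and 52.7% in all. Its part in the motif shares was not tested, and a match describes letters, not binding.

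**Figure D2:**
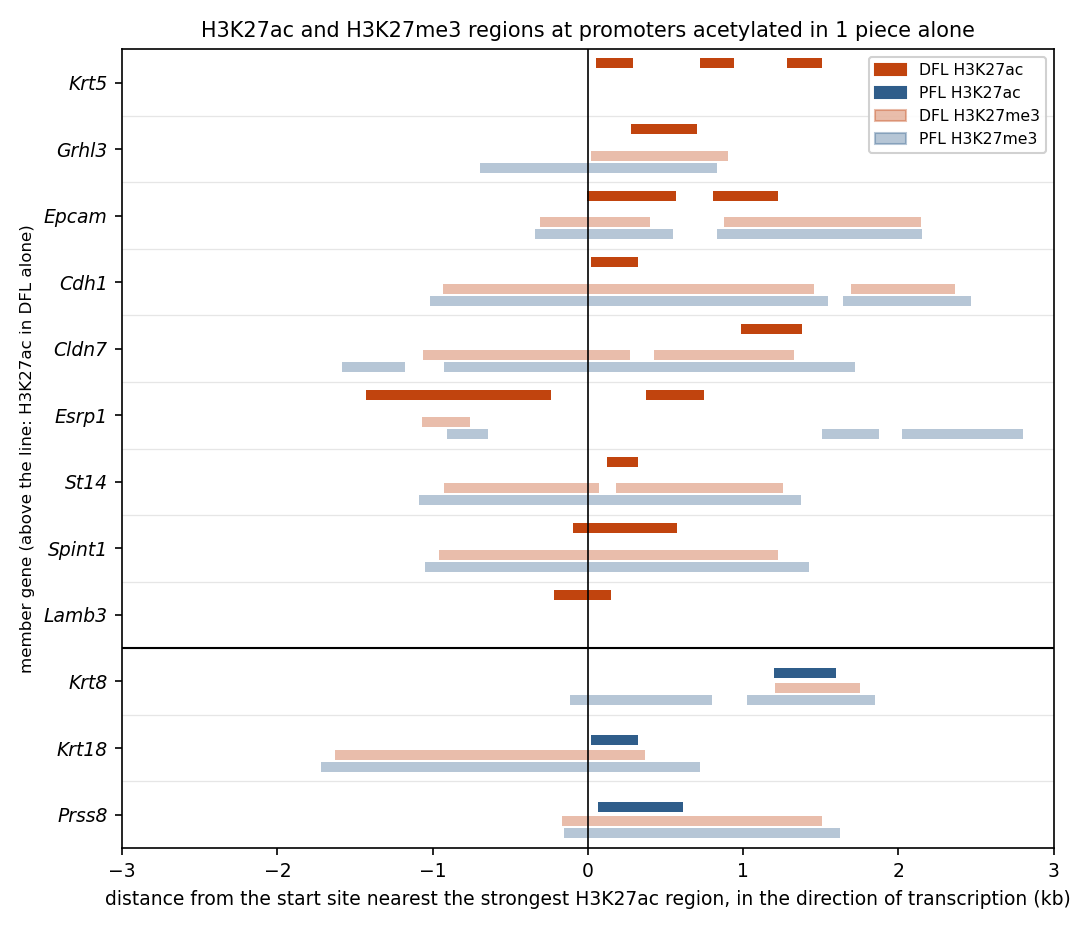
H3K27ac and H3K27me3 regions around the start site at the 12 members acetylated in 1 piece alone, with distance in kb in the direction of transcription. Solid bars are H3K27ac and pale bars H3K27me3, red for DFL and blue for PFL; at Epcam, Cdh1, Grhl3, Esrp1, Cldn7, St14 and Spint1 the DFL H3K27ac bars lie over H3K27me3 bars of both pieces, and Krt5 and Lamb3 have no H3K27me3 bar.

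H3K27me3 was present at 23 member promoters in DFL, against 16.6% of all genes, and at 26 in PFL, against 20.2% of all genes. All of the DFL promoters were also marked in PFL, so that 23 members, or 69.7% (52.7 to 82.6%), carried the mark in both pieces beside 16.2% of all genes. In DFL alone it was present at 0 members (0.475% of all genes) and in PFL alone at 3 (4.01% of all genes), namely Cdh3, Pkp3 and Lama3. The 7 members with H3K27me3 in neither piece, the state of most genes, were Krt5, Krt14, Krt15, Trp63, Rab25, Lamb3 and Col17a1. They include the basal keratins, p63 and 2 of the 4 hemidesmosome and basement membrane genes. The others of those roles were marked, Itgb4 and the other 4 transcription factors in both pieces and Lama3 in PFL. The junction, protease and splicing genes were marked without exception in at least PFL.

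The strongest H3K27me3 enrichment of the set was at Ap1m2, with a fold of 5.97 in DFL and 5.85 in PFL. In DFL Prss8 came next, with 5.81 in DFL and 5.24 in PFL, and then the grainyhead-like gene Grhl1, with 5.05 and 5. The longest regions lay at Ovol1, a repressor that drives epidermal differentiation, with 3136 bp in DFL and 3281 bp in PFL. The PFL-alone regions were short or moderate, with 240 bp and a fold of 2.6 at Cdh3 (P-cadherin), 286 bp and 4.35 at the desmosomal plakophilin Pkp3, and 1175 bp and 3.89 at the upstream start of Lama3, another laminin-332 chain. The DFL library was shallower for this mark, and the part of depth in these differences was not tested.

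Both marks were found at 15 member promoters in DFL, against 8.84% of all genes, and at 14 in PFL, against 12.8%. The PFL count includes Lama3, whose H3K27ac and H3K27me3 lay at different start sites, and was 13 with the annotated gene start only. Neither count required the regions to overlap. In PFL they also lay apart at Cdh3, Esrp2, Cldn6 and Pkp3, and in DFL at Jup. Of the 9 members acetylated in DFL alone, 7 had H3K27me3 in both pieces, as did 107 of the 252 genes acetylated in DFL alone. Among all 33 members 23 had H3K27me3 in both pieces, whatever their H3K27ac. The combination was held by 21.2% of members and by 0.493% of all genes. The 7 members were Epcam, Cdh1, Grhl3, Esrp1, Cldn7, St14 and Spint1. At each an acetylated region overlapped a trimethylated region of DFL as well as of PFL. At Epcam, the H3K27me3 regions over the upstream start site, which was acetylated in DFL, had folds of 3.09 in DFL and 4 in PFL, and those just inside the gene had folds of 4.3 and 5.32. The map of promoters acetylated in 1 piece shows this overlap, and unsorted tissue does not tell whether both marks sat in the same cells. At Esrp1 the overlap was with weak H3K27me3 regions, with folds of 1.55 in DFL and 1.4 in PFL. The PFL-alone genes Krt8, Krt18 and Prss8 likewise had H3K27me3 in both pieces.

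**Figure D3:**
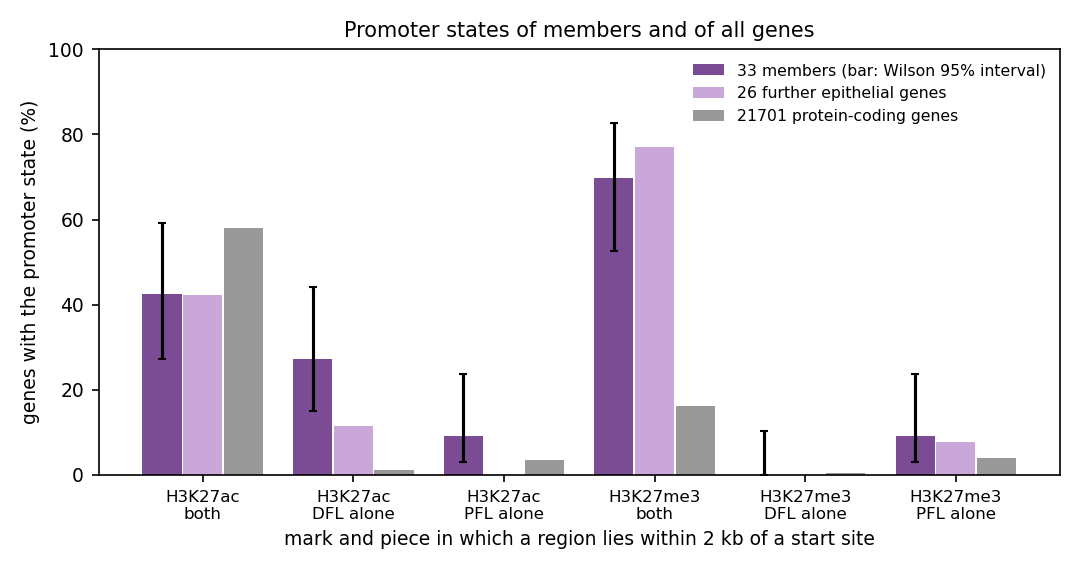
Share of genes (%) by promoter state, H3K27ac or H3K27me3 in both pieces, in DFL only or in PFL only, for the 33 members with Wilson 95% intervals, 26 further epithelial genes and 21701 protein-coding genes. The members stand at 27.3% for H3K27ac in DFL alone against 1.16% of all genes, and at 69.7% for H3K27me3 in both pieces against 16.2%.

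The 14 members acetylated in both pieces were compared by level, taken as the summit pileup divided by the lowest background of the library. Levels were higher in DFL at 11 of the 14, with a median DFL to PFL ratio of 1.37 (0.689 to 1.66), whereas over all 12591 genes acetylated in both pieces the median ratio was 0.901 and 2495 were higher in DFL. The direction depended on the measure. By fold over the local background, Krt14 (2.81 in DFL and 3.32 in PFL), Trp63 (2.71 and 2.8), Cdh3 (4.36 and 4.53) and Cldn4 (3.22 and 3.55) were instead higher in PFL. The other members kept their direction. The levels themselves were low, with a median of 4.8 in DFL and 3.87 in PFL against 15.5 and 17.3 over all such genes. Grhl2, a grainyhead-like activator of junction genes, had a level of 11.3 in DFL and 6.82 in PFL. Cdh3 had the highest level of the set, 20.3 in DFL and 13.9 in PFL. Among the members higher in DFL, Cdh3 and Grhl2 had the largest differences in level.

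Desmosomal genes were acetylated in both pieces at 4 of 5 members, Perp, Dsp, Jup and Pkp3. Desmoplakin (Dsp), which anchors keratin filaments, had levels of 5.92 in DFL and 4.04 in PFL, and Perp, a p63 target, 5.68 and 3.87. Plakoglobin (Jup), shared by desmosomes and cadherin junctions and also used outside epithelia, differed from them with 10.2 in DFL and 11.3 in PFL. Esrp2 (5.2 and 6.4) and Cldn6 (4.64 and 6.73) were also higher in PFL. The strongest region of Cldn6 lay in an intron of Tnfrsf12a, within 2 kb of the start of both genes, and Cldn6 was the only member with another protein-coding gene's start so near.

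**Figure D4:**
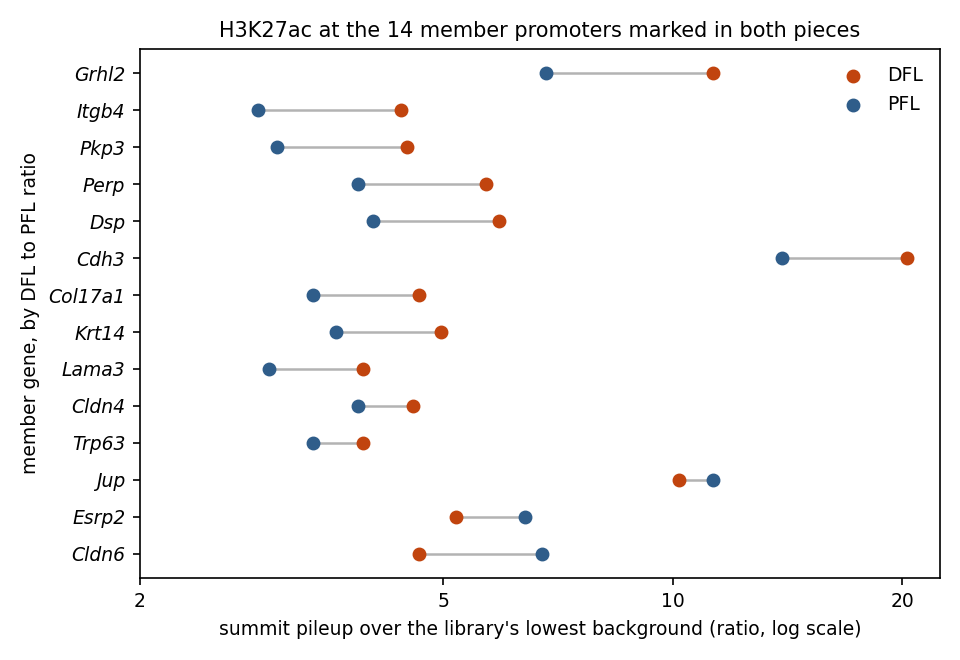
H3K27ac level, as summit pileup over the lowest background of the library (log scale), at the 14 members acetylated in both pieces, with red points for DFL and blue points for PFL. DFL lies to the right at 11 genes and PFL at Jup, Esrp2 and Cldn6.

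At the hemidesmosome and basement membrane genes the level was higher in DFL for Itgb4, the integrin of hemidesmosomes (4.4 in DFL and 2.86 in PFL), for its collagen partner Col17a1 (4.64 and 3.37) and for Lama3 (3.92 and 2.95). In Lama3 the H3K27ac regions of both pieces lay at the internal start, chr18:12504199, and not at the upstream one. Trp63, which encodes p63, showed a comparable split. Its internal start, chr16:25801916, from which the ΔN isoform of basal epidermis is made, had regions in both pieces with folds of 2.71 in DFL and 2.8 in PFL. The upstream start had a region in PFL alone, chr16:25683764-25684077, with a fold of 3.01 and a −log10 q of 7.41. In Krt14, the basal keratin that pairs with Krt5, 4 DFL regions with folds of 2.14 to 2.81 stood against 1 PFL region with a fold of 3.32, and the level was 4.96 in DFL and 3.62 in PFL.

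The 7 members with promoter H3K27ac in neither piece were Krt15, Grhl1, Ovol1, Pkp1, Marveld3, Rab25 and Ap1m2. Of all genes, 58% had the mark in both pieces, 1.16% in DFL alone, 3.59% in PFL alone and the rest in neither. Lacking it was thus not particular to the members. Of the 7 members, Grhl1, Ovol1, Pkp1, Marveld3 and Ap1m2 had H3K27me3 in both pieces. Krt15 and Rab25, a small GTPase of epithelial membrane recycling, had no region of any of the 8 lists at their promoters. Rab25 lay among active genes all the same, with H3K27ac over 10977 bp of its 50 kb window in DFL and over 12127 bp in PFL, much of it near the starts of Lamtor2, Ubqln4, Mex3a, Ssr2 and Lmna. Krt15 had none within 50 kb in either piece.

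Single regions were then compared, among them those behind the promoter counts above, so that the shares are not separate from those counts. The shares set beside them are of whole lists, whose regions need not lie at promoters. A region counted as unshared even with one of the other piece close by, as at Krt14 (196 bp). Of 42 distinct DFL H3K27ac regions at member promoters, 19 overlapped a PFL region, or 45.2% (31.2 to 60.1%), against 73.3% of all DFL regions. Of 24 PFL regions at member promoters, 20 overlapped a DFL region, or 83.3% (64.1 to 93.3%), against 61.9% of all PFL regions. Over the 50 kb on either side of the gene starts the difference was smaller. There 138 of 200 DFL regions (69%) and 137 of 193 PFL regions (71%) were shared.

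Summed over those 50 kb, H3K27ac covered a median of 3347 bp in DFL and 3902 bp in PFL around the members. The median difference, DFL minus PFL, was −79 bp, with 14 members longer in DFL and 18 in PFL. Over all genes it was −243 bp, and 18.2% were longer in DFL and 64.4% in PFL. A difference of at least 1.5-fold, with at least 1000 bp in the longer piece, was reached in DFL by 2 members, Krt14 and Esrp1, against 2.05% of all genes. It was reached in PFL by 3, Krt8, Krt18 and Lamb3, against 12%. Both counts are small, and windows of Krt8 and Krt18, of Krt14 and Krt15 and of Cdh1 and Cdh3 overlap.

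The largest excess in DFL was at Esrp1, with 1569 bp in DFL and 0 bp in PFL, all of it at the promoter. Cdh3 followed with 6185 bp in DFL and 4758 bp in PFL, Spint1 with 4221 and 2831 bp, Grhl3 with 4759 and 3627 bp, and Epcam with 5498 and 4522 bp. The largest excess in PFL was at Krt18, with 2877 bp in DFL and 5620 bp in PFL, and at Krt8, with 3294 and 5434 bp. Between these neighbouring keratins lay a PFL region with no counterpart listed in DFL, chr15:102025381-102025952, with a fold of 3.57. Lamb3 had 3347 bp in DFL and 5393 bp in PFL, counted around its upstream start and hence without the internal start acetylated in DFL. Rab25 (10977 and 12127 bp) and Cldn6 (3722 and 4369 bp) completed the PFL side.

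**Figure D5:**
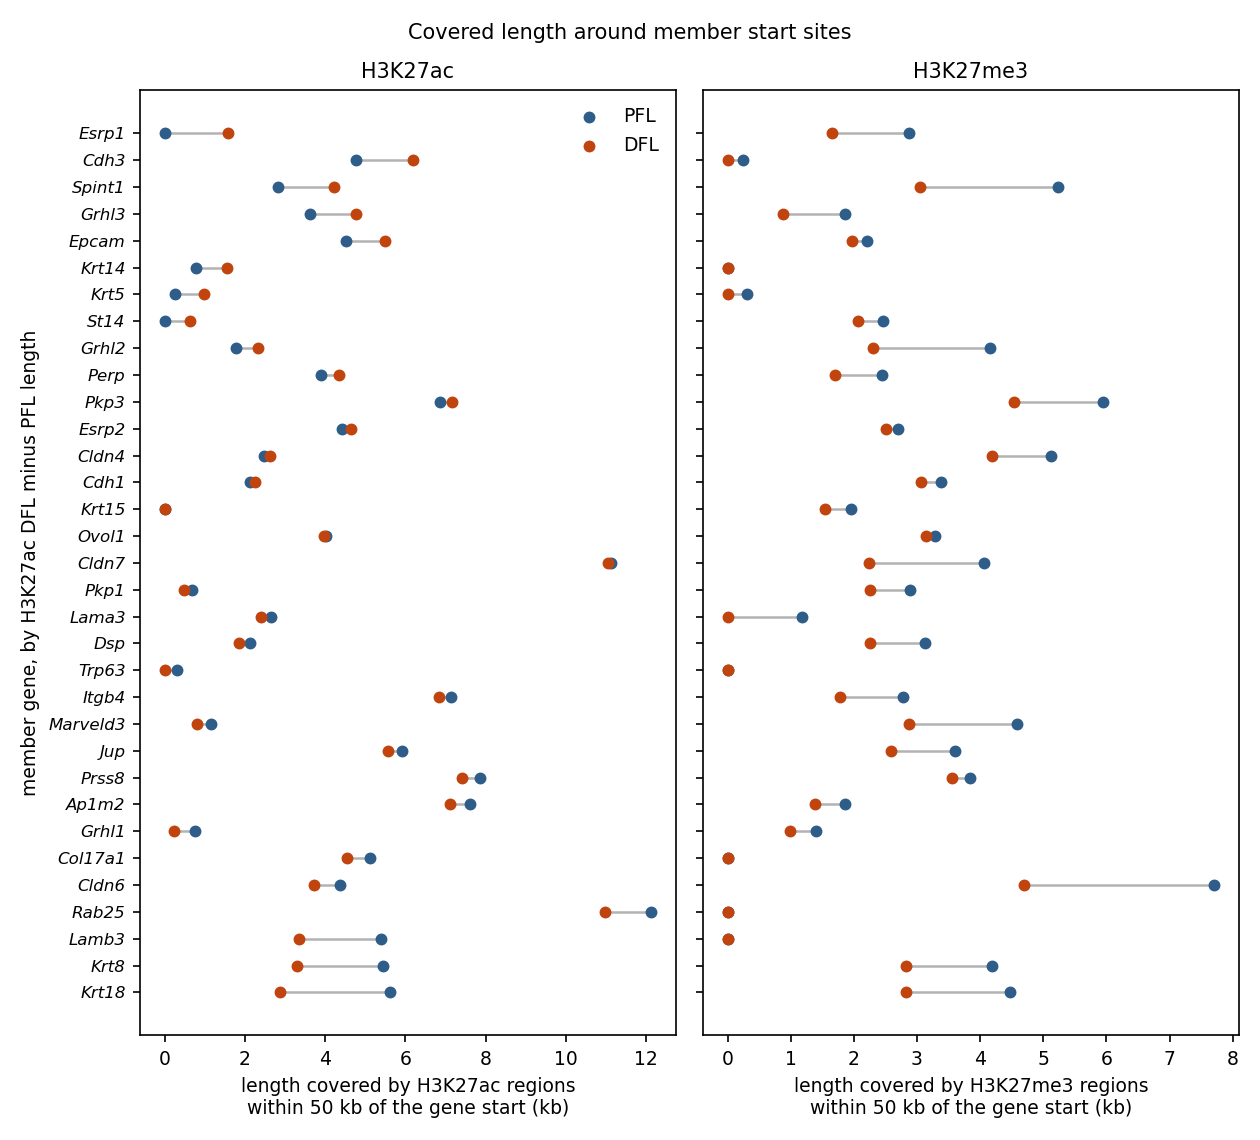
Covered length in kb of H3K27ac regions (left) and of H3K27me3 regions (right) within 50 kb of each member's gene start, with red points for DFL and blue points for PFL and genes ordered by the H3K27ac difference. The H3K27ac points lie on both sides, from Esrp1 with 1569 bp in DFL and 0 bp in PFL to Krt18 with 2877 and 5620 bp, and no H3K27me3 point of DFL lies beyond that of PFL.

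H3K27me3 within 50 kb covered a median of 2073 bp in DFL and 2783 bp in PFL around the members. PFL was longer at 28 members (84.8%) and DFL at 0, and 5 members had no H3K27me3 there in either piece. The median difference was −633 bp. Of all 21701 genes, 11789 had none in either piece, 8956 (41.3%) were longer in PFL and 954 (4.4%) in DFL. The median difference over all genes was 0 bp. Where the mark was present, PFL was thus mostly the longer piece in all genes as in the members. By the 1.5-fold rule 10 members were longer in PFL, against 14.5% of all genes, and 0 in DFL, against 0.253%. These shares of all genes include the genes without the mark. The largest differences were at Cldn6 (4694 bp in DFL and 7707 bp in PFL) and Spint1 (3043 and 5234 bp). Scaled to the lowest background, the pileup at the 23 promoters marked in both pieces had a median of 20.2 in DFL and 21.9 in PFL, with PFL higher at 18 and DFL at 4, and a median ratio of 0.947, beside 0.933 over all genes so marked. The longer PFL regions moved with the deeper PFL library, whose part was not tested.

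CTCF was present at 9 member promoters in both pieces, against 30% of all genes, at 3 in DFL alone, against 2.8%, and at 0 in PFL alone, against 1.98%. The strongest sites were at genes without promoter H3K27ac or with it in DFL alone. Marveld3, a tight junction protein, had a fold of 19.9 in DFL and 18.3 in PFL, Ap1m2 19.6 and 18.3, and Lamb3, at its upstream start, 15.7 and 13.7. The DFL-alone sites were weak, with folds of 2.68 at Cdh3, 4.42 at Grhl1 and 3.35 at Dsp. Within 50 kb of the members 90.7% of DFL and 94.2% of PFL CTCF regions were shared, against 88.7% and 91.8% in the whole lists. CTCF thus differed little between the pieces around these genes.

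HOX13 regions stood at member promoters about as often as at all genes. HOXA13 was listed at 9 member promoters, against 31.7% of all genes, and HOXD13 at 8, against 28.7%. Krt8, Epcam, Cdh3, Grhl1, Grhl2, Pkp1, Lama3 and Col17a1 had both factors and Trp63 had HOXA13 alone, over the upstream start acetylated in PFL. Of the 9 members acetylated in DFL alone, only Epcam had a HOX13 region at its promoter, with a fold of 2.53 for HOXA13 and for HOXD13. Near the members 62 H3K27ac regions were in DFL alone, and 11 of them, or 17.7% (10.2 to 29%), overlapped a HOX13 region, against 32.5% of all DFL-alone regions. Of the 56 PFL-alone regions near members 7 did, as did 3319 of all 26481 PFL-alone regions.

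Some single sites were strong. The desmosomal gene Pkp1 had a HOXA13 region at chr1:135920555-135921251, upstream of the gene and outside genes, with a fold of 16.3 (rank 235 of 66761 regions), and a HOXD13 region with a fold of 13.5 (rank 490 of 52660). No H3K27ac region lay at that promoter in either piece. Cdh3 had folds of 8.05 and 7.74 in an intron at the 3′ end of its acetylated region, and Lama3 8.33 and 8.4 at the internal start. The strongest HOXD13 region within 50 kb of any member lay in an intron of Grhl3, chr4:135570094-135570579, 3313 bp inside the gene, with a fold of 20 (rank 25), and HOXA13 had a fold of 12.4 there. H3K27ac regions flanked it on either side in both pieces. The 101 bases around these summits in mm10 are shown. Pkp1 and Grhl3 hold the strongest HOXA13 and HOXD13 regions within 50 kb of any member. At Cdh3 the strong HOX13 regions overlap the 3′ end of the acetylated region, but the stretch shown lies just beyond that end. Capitals mark ATAAA or its reverse complement, the end of the HOX13 letters CAATAAA, chosen after the longer letters had been searched.
Pkp1 HOXA13 summit, chr1:135920806-135920906, plus strand: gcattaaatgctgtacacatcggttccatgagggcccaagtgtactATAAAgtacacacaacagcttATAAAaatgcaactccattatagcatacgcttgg
Grhl3 HOXD13 summit, chr4:135570267-135570367, plus strand: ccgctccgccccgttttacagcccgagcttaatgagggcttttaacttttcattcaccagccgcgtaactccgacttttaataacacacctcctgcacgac
Cdh3 HOXA13 summit, chr8:106512547-106512647, plus strand: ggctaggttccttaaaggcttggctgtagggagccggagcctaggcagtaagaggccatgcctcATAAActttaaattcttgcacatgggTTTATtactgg
CAATAAA stood within 50 bases of the summit in 10.7% of all HOXA13 and 11.9% of all HOXD13 regions. At member promoters it did in 1 of 10 HOXA13 and 1 of 9 HOXD13 regions. The shorter ATAAA was in 55.4% and 58.7% of all regions and in 6 of the 10 and 6 of the 9 at members. Pkp1 and Cdh3 carried it 2 times each in the stretches above, and the Grhl3 stretch did not carry it.

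Further genes were counted beside the members, without a test. Of 26 further epithelial genes, promoter H3K27ac was shared by the pieces at 11, listed only in DFL at 3 and only in PFL at 0, while H3K27me3 was shared at 20. Of 5 genes of the apical ectodermal ridge and limb ectoderm, Sp6, Sp8 and Wnt7a were acetylated in DFL alone, En1 in both and Fgf8 in neither. The repressors Zeb2, Snai1 and Snai2, which bind the E-box, were acetylated in both pieces, as were 58% of all genes. Zeb2 and Snai1 also had H3K27me3 in both pieces. Among other cell types, 4 of 5 muscle genes (Myod1, Myf5, Myog and Des) were acetylated in PFL alone, and of 7 endothelial genes 5 were in both, Tie1 in DFL alone and Esam in PFL alone. The 3 proximal limb genes were acetylated in both pieces. The share of ectoderm in each piece was not measured, and its part in the counts of DFL-alone promoters was not tested.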

How the data were processed

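The 6 deposited peak lists and 2 lists of no sample were used as the authors made them. The study's methods and the submitters' processing notes name cutadapt, Bowtie, SAMtools and MACS2 on mm10, with peaks called per library at a q-value of 0.05 and no input control. Each deposited line gives an interval, a fold enrichment (the ratio of summit pileup to local background), the −log10 p and −log10 q and, as another value, the summit offset. Without input, open chromatin can raise the fold, and a weak region can fall either side of the threshold.

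Groups came from the sample titles. Regions were merged within a list and placed on GENCODE vM21 genes (autosomes and X) with Python 3.11.15, numpy 2.4.6 and scipy 1.17.1, and letters were read with pysam 0.24.0. Of 21755 protein-coding genes, 54 symbols occurred more than once and were left out. The files hold no read totals, so depth was taken as the lowest background solved from fold and −log10 p, to a tolerance of 0.002 in log10 p. The methods were tested on simulated data. The members and gene lists were chosen with earlier results of these data known. Genes were named when acetylated or trimethylated in 1 piece alone or in neither, when among the 5 largest covered-length differences each way, or when HOX13 or 1-piece CTCF lay at the promoter; level and role examples, and the Grhl3 intron site, were chosen after their values were seen. Stricter q-values, lists of equal size and other distances were the alternatives. Results on some further genes are not reported here.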

Additional observations from a re-analysis of the deposited data

How the results depend on the processing

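Each count over the members was computed again under 11 alternatives, 1 of them (a stricter q-value in 1 piece and no region at all in the other) added after the data were seen. Of 134 values, 108 stayed within 1.5 times the main value in the same direction. The 9 members acetylated in DFL alone stayed 9 with lists of equal size, the same genes, against 1.53% of all genes. With a −log10 q of at least 5 in both lists they were 7, against 1.03% of all genes, of which 6 were among the 9. Grhl3, Cldn7 and St14 then dropped out and Lama3 was added. In PFL alone 2 members were left under either setting, Krt18 and Prss8, against 2.93% of all genes with lists of equal size and 3.23% at the stricter q-value. Krt8 dropped out. With a −log10 q of at least 5 in DFL and no deposited region in PFL 6 of the 9 remained. The median H3K27ac difference within 50 kb, −79 bp, was not stable, being 123 bp with lists of equal size, 61 bp in windows of 20 kb and 123 bp without regions at other genes' starts, and 0 bp at −log10 q of at least 5, −390 bp in windows of 100 kb and −137 bp with overlapping windows merged. Members with longer H3K27ac in DFL numbered 5 at the stricter q-value, 4 with lists of equal size and 5 in 20 kb, and those longer in PFL 1, in the first and last of these. H3K27me3 in PFL alone was at 5 promoters at the stricter q-value and 5 within 1 kb. Its median difference was −421 bp with lists of equal size and −421 bp in 20 kb, and 5 members were longer in PFL with lists of equal size. CTCF in PFL was at 14 promoters within 5 kb. HOXD13 was at 5 promoters at the stricter q-value and 5 within 1 kb, and HOXA13 at 16 within 5 kb. HOXA13 and HOXD13 regions near members numbered 58 and 51 at the stricter q-value, 55 and 42 in 20 kb and 186 and 138 in 100 kb. The cause of these changes was not tested. No paired analysis was possible because each mark had 1 library per piece. Weak regions near the threshold, the shallow DFL H3K27me3 library and the lack of replicates and input limit all of these counts.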

Other observations

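Further sites near the members had strong HOXA13 enrichment. Within 50 kb of Krt15, HOXA13 regions with folds of 15.7 and 12 lay within 2 kb of the starts of the hair keratin genes Krt32 and Krt35, while no H3K27ac region of either piece was listed in that window. Upstream of Krt8, on the side away from its promoter region, a HOXA13 region (chr15:102007358-102007902) had a fold of 11.4. Between the pieces, an H3K27ac region upstream of Epcam, chr17:87612693-87614590 in DFL, had a fold of 5.96 in DFL and 6.09 in PFL and overlapped a HOX13 region. In an intron of Grhl3 a DFL region (chr4:135549206-135550162) had a fold of 4.59, against 2.26 for the PFL region it overlapped, and a HOX13 region lay there too. These sites were chosen after their values were seen.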
